A study of Homo sapiens with 8 samples.

Results

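The 51 genes described here encode enzymes that break down amino acids, chosen by their biochemical role and grouped by substrate: histidine, tyrosine and phenylalanine, tryptophan, glycine, the branched-chain amino acids, lysine, proline, glutamate with the general transaminases, and cysteine. The rule used no fold change or test result, only a minimum of 10 counts in 2 libraries. Earlier results of these data were known when the list was made. Each of the 51 symbols matched 1 gene identifier, and 50 of them were among the 13943 genes tested, out of 38032 identifiers in the files. HepG2 is an established human line from a hepatocellular carcinoma. From one pool of HepG2 cells, labelled wild type, 4 replicates were kept for 8 days on flat tissue culture plastic (2D-primed) and 4 for 8 days on Alvetex, a porous polystyrene scaffold (3D-primed). Both groups had minimal essential medium with non-essential amino acids, glutamine and foetal bovine serum, received no drug, and were released with trypsin before polyadenylated RNA was sequenced. The paper gives a higher seeding number for scaffold inserts than for flat wells of the same plate format. Seeding density and substrate therefore cannot be told apart. All cells came from this 1 tumour line, and the labels do not say whether replicates were started independently, so p-values measure the spread between these libraries only.

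Amino acid catabolism in the liver usually begins with removal of the amino group. A transaminase passes it to 2-oxoglutarate, or a lyase or dehydrogenase releases it as ammonia. The carbon skeleton is then cut, in the cytosol for histidine and the aromatic amino acids and mostly in mitochondria for the branched-chain amino acids, lysine, proline and glycine, and the products enter central metabolism. Tyrosine aminotransferase, among the first enzymes, is a classic marker of differentiated hepatocytes.

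The 4 members with the largest rise for which RefSeq gave a promoter window were HAL, BCAT1, CDO1 and GCSH, and their windows are shown because the results below turn on these genes. Each window runs 5′ to 3′ on the gene's strand, from 250 bases before to 50 bases after the annotated start in GRCh38.p14, and capitals mark the motif matches found in it. HAL lies at chr12:95996295-95996594, BCAT1 (the first of 5 annotated windows) at chr12:24949052-24949351, CDO1 at chr5:115816610-115816909 and GCSH at chr16:81096346-81096645, all on the minus strand.
HAL: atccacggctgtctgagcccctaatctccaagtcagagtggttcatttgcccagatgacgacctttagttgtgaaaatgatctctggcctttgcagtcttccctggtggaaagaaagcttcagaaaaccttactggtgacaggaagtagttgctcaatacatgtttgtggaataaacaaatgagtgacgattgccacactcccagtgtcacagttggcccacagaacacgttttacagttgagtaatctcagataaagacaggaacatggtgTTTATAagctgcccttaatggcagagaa
BCAT1: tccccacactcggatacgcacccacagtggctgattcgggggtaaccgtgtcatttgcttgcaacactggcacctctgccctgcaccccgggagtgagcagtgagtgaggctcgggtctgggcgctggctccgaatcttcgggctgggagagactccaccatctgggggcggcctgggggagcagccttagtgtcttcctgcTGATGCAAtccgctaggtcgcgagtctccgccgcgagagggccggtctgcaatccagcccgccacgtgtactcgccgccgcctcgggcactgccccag
CDO1: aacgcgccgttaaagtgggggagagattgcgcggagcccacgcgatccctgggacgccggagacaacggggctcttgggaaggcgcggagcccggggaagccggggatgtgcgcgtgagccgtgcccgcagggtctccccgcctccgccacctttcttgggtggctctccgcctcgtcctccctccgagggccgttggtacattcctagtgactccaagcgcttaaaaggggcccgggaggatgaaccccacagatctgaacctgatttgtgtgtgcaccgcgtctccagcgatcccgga
GCSH: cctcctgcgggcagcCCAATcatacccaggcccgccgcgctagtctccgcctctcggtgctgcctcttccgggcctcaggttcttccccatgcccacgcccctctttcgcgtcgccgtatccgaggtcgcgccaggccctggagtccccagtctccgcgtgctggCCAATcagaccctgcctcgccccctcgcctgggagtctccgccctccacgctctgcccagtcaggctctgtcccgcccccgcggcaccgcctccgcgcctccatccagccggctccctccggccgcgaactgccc
In HAL the capitals are a TATA box read on the opposite strand, 22 bases after the start. In BCAT1 they are the letters TGATGCAA, a form of the ATF4-C/EBP element TGATGNAA, which begin 48 bases before the start, and in GCSH they are 2 CCAAT boxes that begin 235 and 85 bases before it. The CDO1 window held none of the motifs searched. RefSeq gave 61 windows for 45 of the 51 members, with a median GC content of 64.3%, and the median over all 35116 windows was 58.7%. Searched on both strands and with no overlap removed, CCAAT was found in 47.5% of the members' windows and in 34.6% of all windows. The TATA box TATAAA was in 11.5% of both. TGATGNAA, a letter string of the ATF4-C/EBP element, was in 3.28% of the members' windows (GOT1 and BCAT1) and in 3.62% of all. The HNF4 string CAAAGTCCA was in 3.28% (HAAO and AADAT) and 0.384%, and the C/EBP string TTGCGCAA in none of the members' windows and 0.151% of all. The shares count windows, so a gene with several windows can count more than once, as MCCC1, DLD, BCAT1 and GCDH did for CCAAT. All matches are of letters and are not binding sites.

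Most of these enzymes were counted higher in 3D-primed cells. Of the 50 tested members, 37 rose and 5 fell, and 8 did not pass the test of edgeR, whose threshold was a Benjamini-Hochberg adjusted p, given below as the false discovery rate (FDR), of 0.05. That is 84.0% called, beside 63.9% of all genes tested. The rises made up 74.0% of the members, beside 32.4% of all genes, and the falls (BCKDK, KYAT1, BCKDHA, ALDH4A1 and GPT2) are to be read beside 31.6% of all genes that fell. At least 2-fold higher were 7 members (HAL, BCAT1, TAT, CDO1, GCSH, KYNU and AMDHD1), where 4.86% of all genes rose this far, and none was at least 2-fold lower with or without the test, where 7.01% of all genes were called this far down. The libraries of the groups did not overlap in 41 members, 82.0% of those tested, beside 59.8% of all genes. The median log2 fold change (3D-primed over 2D-primed) was 0.46 over the members and 0.01 over all genes, and the members ran from -0.70 (BCKDK) to 3.12 (HAL). In bulk RNA, fewer cells expressing a gene and less of its RNA per cell cannot be told apart.

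**Figure D1:**
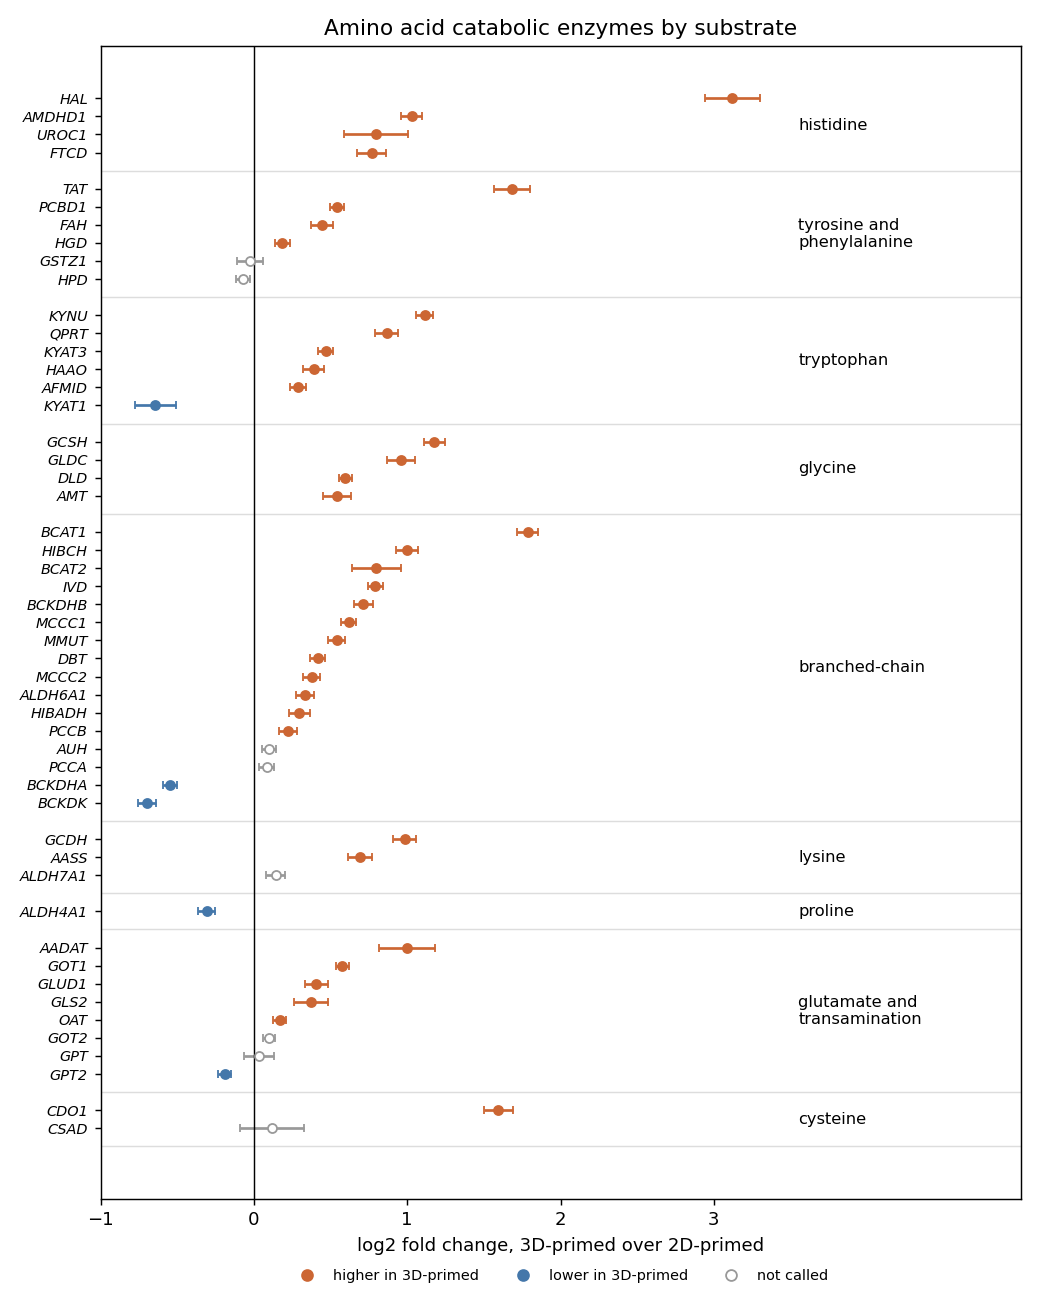
Log2 fold change of each of the 50 tested enzymes, 3D-primed over 2D-primed, grouped by substrate, with bars for 1 standard error. Filled orange points (37 genes) were called higher, filled blue points (5 genes) lower, and open grey points (8 genes) were not called in edgeR's test; HAL stands apart on the right at 3.12.

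The plot of fold changes by substrate shows that every tested histidine and glycine member was called higher, while each other substrate held at least 1 member that fell or was not called. For glycine this holds for the listed members only. Of 9 other glycine genes tested, 4 rose, 1 fell and 4 were not called. That is 55.6% called, beside 63.9% of all genes tested. The members' share of all counts was 0.327 to 0.362% in 2D-primed and 0.432 to 0.471% in 3D-primed cells. Library totals were 21599630 to 25019499 counts in 2D-primed and 22153063 to 27844077 in 3D-primed cells. Counts from mitochondrial DNA, which the members are not part of, moved with the groups, from 1.40 to 1.81% in 2D-primed to 2.47 to 2.98% in 3D-primed libraries. With these genes left out of the counts, 37 members rose and 5 fell as before. 2D-primed replicate 3 was the lowest library of its group in 33 of the 50 members, and without it 37 rose, 5 fell and the median was 0.42. The 8 hepatocyte markers were abundant in both groups, with summed levels of 68976 to 75051 CPM (counts relative to library size times 1000000, after TMM scaling) in 2D-primed and 96484 to 108487 CPM in 3D-primed libraries. Of these markers 6 were called higher in 3D-primed cells and 2, APOB and SERPINA1, lower (log2 fold changes -0.25 and -0.14, edgeR FDR = 0.016 and 0.011). AFP had the largest log2 fold change of the 8, 1.11, from a mean of 8679 to 18752 CPM (edgeR FDR = 2e-08). ALB went from 26391 to 44035 CPM (log2 fold change 0.74, edgeR FDR = 1.9e-06). The part of these 8 markers in the members' rise was not tested. Marker sums of other cell types were 11.0 to 12.2 CPM in 2D-primed and 15.1 to 18.1 CPM in 3D-primed libraries for fibroblasts and stellate cells, and 5.58 to 7.72 and 4.16 to 5.70 CPM for endothelial cells. For immune cells they were 2194 to 2286 and 2421 to 3027 CPM, nearly all of it LYZ. Single markers within a sum went both ways. PDGFRB rose from a mean of 10.7 to 16.4 CPM and made up most of the fibroblast sum, while COL1A1 fell from 0.969 to 0.0703 CPM (edgeR FDR = 1.8e-05 and 9.6e-05). The endothelial marker CDH5 fell from 4.73 to 1.59 CPM and the immune marker CD68 from 72.7 to 34.4 CPM (edgeR FDR = 2.7e-05 and 6.3e-07). The endothelial marker VWF rose from 1.11 to 1.71 CPM (edgeR FDR = 0.03), and PECAM1 was not called (edgeR FDR = 0.12). The immune markers CD14 and LYZ rose, from 1.65 to 2.83 and from 2168 to 2642 CPM (edgeR FDR = 0.0017 and 0.0024). Of the listed markers, 2 of 6 for fibroblasts and stellate cells, 3 of 5 for endothelial and 3 of 5 for immune cells passed the count filter. Other markers were at or near 0, with at most 2 counts in any library for COL1A2, LUM, DCN, KDR and PTPRC and no count for STAB2 and CD3E.

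The histidine pathway rose along its whole length. HAL (ENSG00000084110, chromosome 12, 95972662 to 95996365 of GRCh38) encodes histidine ammonia-lyase, which takes the first step from histidine to urocanate. Its level was 10.4, 12.4, 11.3 and 14.8 CPM in 2D-primed replicates 1 to 4 and 98.7, 109, 139.6 and 77.8 CPM in 3D-primed replicates 1 to 4. Even the lowest 3D-primed library was far above the highest 2D-primed one, although the 3D-primed values spread widely. The mean went from 12.2 ± 1.89 to 106 ± 25.7 CPM (SD, n = 4), an 8.69-fold rise and a log2 fold change of 3.12 (standard error 0.18, edgeR FDR = 2.7e-07). Leaving out single libraries moved it between 2.95 and 3.24. HAL was the only member that rose more than 4-fold by the fitted change, from a low level of 3.14 CPM per kb of transcript to 27.3.

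UROC1, urocanate hydratase, takes the next step and was the faintest of the 4 genes, with 2.75, 3.29, 1.67 and 2.36 CPM in 2D-primed and 5.55, 3.63, 4.30 and 3.97 CPM in 3D-primed libraries. The groups were apart by a small margin, and the log2 fold change was 0.80 (edgeR FDR = 0.0071). AMDHD1 (ENSG00000139344), the imidazolonepropionase of the third step, had 9.62, 10.5, 11.0 and 10.5 CPM in 2D-primed and 21.8, 21.5, 22.8 and 19.2 CPM in 3D-primed libraries, a log2 rise of 1.03 (edgeR FDR = 6.6e-07). The gene lies beside HAL on chromosome 12, from 95943331 to 95968720, with its 3′ end facing that of HAL across 3941 bases. No other pair of members lay within 1000000 bases of each other. FTCD, which moves the formimino group of the histidine product onto tetrahydrofolate, went from 43.8 ± 6.43 to 74.6 ± 4.36 CPM (log2 fold change 0.77, edgeR FDR = 4.8e-05). The log2 fold changes of the 3 later genes, AMDHD1, UROC1 and FTCD, thus ran from 0.77 to 1.03, beside 3.12 for HAL.

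In tyrosine and phenylalanine breakdown the first enzyme rose most and the next did not pass the test. TAT (ENSG00000198650, chromosome 16, 71565660 to 71577092) encodes tyrosine aminotransferase, which commits tyrosine to breakdown. It was counted at 7.47, 6.66, 6.96 and 6.79 CPM in 2D-primed and 26.9, 19.4, 24.2 and 19.0 CPM in 3D-primed libraries. No 3D-primed library came near the 2D-primed range, and the log2 fold change was 1.68 (standard error 0.12, edgeR FDR = 8.9e-07). HPD, the dioxygenase that makes homogentisate, held 199, 217, 201 and 211 CPM in 2D-primed and 205, 204, 195 and 184 CPM in 3D-primed libraries. These values overlapped, with a log2 fold change of -0.07 (standard error 0.047, edgeR FDR = 0.21). HGD, which opens the homogentisate ring, had 100.1 to 105 CPM in 2D-primed and 109 to 124 CPM in 3D-primed libraries, a small log2 rise of 0.19 (edgeR FDR = 0.005).

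GSTZ1, the isomerase between HGD and the last enzyme, overlapped between the groups at 11.7, 12.4, 11.4 and 11.0 CPM in 2D-primed and 12.2, 9.61, 11.5 and 12.2 CPM in 3D-primed libraries. Its log2 fold change was -0.03 (standard error 0.084, edgeR FDR = 0.79), and its sign depended on the scaling. FAH, the hydrolase that ends the pathway by releasing fumarate and acetoacetate, rose from 33.7 ± 3.04 to 45.9 ± 3.57 CPM (log2 fold change 0.44, edgeR FDR = 0.00037). PCBD1, which takes part in regenerating the cofactor tetrahydrobiopterin, rose from 56.4 ± 2.42 to 82.1 ± 4.24 CPM (log2 fold change 0.54, edgeR FDR = 4.9e-06). Per kb of transcript, TAT remained the least abundant of the 6 genes after its rise, at 5.67 CPM per kb in 3D-primed cells, beside 139 for HPD.

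**Figure D2:**
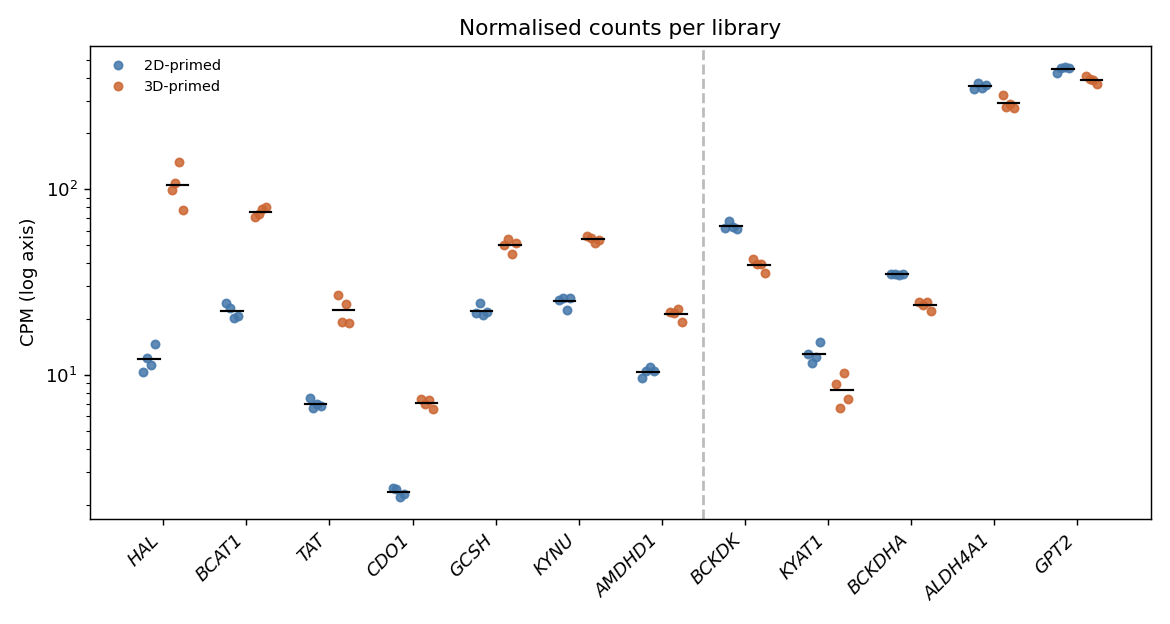
Level of 12 enzymes in each library in CPM on a log axis, with 2D-primed libraries in blue, 3D-primed libraries in orange and a bar at each group's mean. Left of the dashed line are the 7 enzymes that were at least 2-fold higher in 3D-primed cells, right of it the 5 that were lower, and the groups do not overlap in any of the 12.

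The plot of levels by library also shows the tryptophan enzyme KYNU with its groups far apart and KYAT1 with its groups close. For tryptophan, 5 of the 6 tested genes (83.3%) rose and 1 fell, beside 32.4% and 31.6% of all genes tested that rose and fell. TDO2, the tryptophan dioxygenase of the liver and the usual entry to the kynurenine pathway, had 0, 3, 0 and 0 counts in 2D-primed and 2, 4, 0 and 0 counts in 3D-primed libraries and was not tested. The other members of the pathway were well above this level. AFMID, the formamidase that yields kynurenine, rose from 116 ± 8.06 to 141 ± 5.24 CPM (log2 fold change 0.29, edgeR FDR = 0.00087). KYNU (ENSG00000115919, chromosome 2, 142877657 to 143055833) encodes kynureninase, which splits off alanine. It had 25.4, 26.0, 22.3 and 25.9 CPM in 2D-primed and 56.4, 54.5, 51.7 and 53.2 CPM in 3D-primed libraries, with clearly separate groups and a log2 fold change of 1.11 (standard error 0.055, edgeR FDR = 1.1e-07).

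KYAT1 and KYAT3 are transaminases that turn kynurenine into kynurenic acid, and they moved in opposite directions. KYAT1 had 12.9, 11.5, 12.5 and 15.0 CPM in 2D-primed and 8.90, 6.60, 10.2 and 7.47 CPM in 3D-primed libraries. All 3D-primed values were lower, the nearest by little, and the log2 fold change was -0.64 (standard error 0.13, edgeR FDR = 0.0016). KYAT3 had 20.3, 21.1, 20.5 and 20.3 CPM in 2D-primed and 26.7, 30.1, 28.9 and 28.0 CPM in 3D-primed libraries, a log2 rise of 0.47 (edgeR FDR = 1.4e-05). On the branch towards NAD, HAAO, the dioxygenase that makes the precursor of quinolinate, rose by 0.39 on the log2 scale (edgeR FDR = 0.00048). QPRT, which converts quinolinate to a nicotinate nucleotide, was the most abundant tryptophan gene per kb in 3D-primed cells (144 CPM per kb) and rose from 173 ± 14.2 to 316 ± 26.8 CPM (log2 fold change 0.87, edgeR FDR = 3.3e-06).

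All 4 genes of the glycine cleavage system rose. This mitochondrial complex splits glycine into carbon dioxide, ammonia and a one-carbon unit on folate. GLDC, its decarboxylase, had 65.3, 57.1, 47.0 and 57.5 CPM in 2D-primed and 114, 112, 97.97 and 117 CPM in 3D-primed libraries, a log2 rise of 0.96 (standard error 0.091, edgeR FDR = 7.4e-06). GCSH (ENSG00000140905, chromosome 16, 81081945 to 81096395) encodes the lipoyl carrier protein that shuttles the intermediate between the other subunits. It had 21.4, 24.4, 21.0 and 21.8 CPM in 2D-primed and 49.98, 54.0, 44.8 and 51.6 CPM in 3D-primed libraries, and the log2 fold change was 1.18 (standard error 0.068, edgeR FDR = 2.7e-07). Its pseudogene GCSHP5, a near copy on chromosome 1, held 171 to 447 counts per library, 21.8 to 28.2% of the pair, and reads may have been split between them. Summed over the pair the level went from 30.3 ± 2.50 to 66.0 ± 4.86 CPM. AMT, the aminomethyltransferase, rose by 0.54 on the log2 scale (edgeR FDR = 0.00048). DLD, the dihydrolipoyl dehydrogenase that is also part of the pyruvate, 2-oxoglutarate and branched-chain complexes, rose from 52.9 ± 0.696 to 80.1 ± 3.56 CPM (log2 fold change 0.60, edgeR FDR = 7.3e-07).

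Branched-chain catabolism was the group with the most members, of which 12 rose, 2 fell and 2 were not called. The 12 were 75.0% of this group, beside 32.4% of all genes tested that rose and 31.6% that fell. The first step of this catabolism is transamination. BCAT1 (ENSG00000060982, chromosome 12, 24810024 to 24949101), the cytosolic transaminase of leucine, isoleucine and valine, had 24.4, 22.9, 20.2 and 20.8 CPM in 2D-primed and 70.9, 73.5, 78.7 and 80.5 CPM in 3D-primed libraries. The groups were tight and far apart, with a 3.45-fold rise, a log2 fold change of 1.79 (standard error 0.067) and the smallest adjusted p of the members (2.6e-08 in edgeR, as FDR). BCAT2, its mitochondrial counterpart, was scarce, with 26 to 72 counts per library, 1.19, 1.77, 1.34 and 1.56 CPM in 2D-primed and 2.72, 2.39, 2.58 and 2.54 CPM in 3D-primed libraries. It rose as well, by 0.80 in log2 units (standard error 0.16, edgeR FDR = 0.0015).

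The next step, the irreversible decarboxylation by the branched-chain ketoacid dehydrogenase, was split among its genes. BCKDHA, the alpha subunit of the decarboxylase, had 35.1, 34.9, 34.4 and 35.0 CPM in 2D-primed and 24.7, 23.8, 24.8 and 22.1 CPM in 3D-primed libraries. Its groups were narrow and apart, and it fell by 0.55 in log2 units (standard error 0.046, edgeR FDR = 3.4e-06). BCKDHB, the beta subunit of the same heterotetramer, had 8.38, 9.16, 7.77 and 8.65 CPM in 2D-primed and 13.5, 14.0, 13.9 and 14.3 CPM in 3D-primed libraries and rose by 0.71 (edgeR FDR = 5.1e-06). DBT, the acyltransferase core, rose by 0.42 (edgeR FDR = 3.1e-05). BCKDK, the kinase that phosphorylates the alpha subunit and so switches the complex off, had 61.8, 67.9, 62.7 and 61.1 CPM in 2D-primed and 42.1, 39.4, 39.5 and 35.4 CPM in 3D-primed libraries. No member had a more negative log2 fold change than this kinase, at -0.70 (standard error 0.057, edgeR FDR = 2.6e-06).

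Beyond the complex the pathways of leucine and valine separate. On the leucine side, IVD, isovaleryl-CoA dehydrogenase, rose from 54.7 ± 2.16 to 94.6 ± 5.19 CPM (log2 fold change 0.79, edgeR FDR = 4.4e-07). MCCC1 and MCCC2, the biotin-carrying and carboxyltransferase subunits of methylcrotonyl-CoA carboxylase, rose by 0.62 and 0.38 on the log2 scale (edgeR FDR = 3e-06 and 0.00015). AUH, the hydratase that follows them, had 31.3, 31.8, 30.4 and 29.2 CPM in 2D-primed and 32.9, 34.1, 31.5 and 32.9 CPM in 3D-primed libraries. These ranges overlapped slightly, and the log2 fold change of 0.10 (standard error 0.044) missed the threshold (edgeR FDR = 0.071).

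On the valine side, HIBCH, which frees 3-hydroxyisobutyrate from coenzyme A, had 17.5, 17.0, 17.0 and 19.6 CPM in 2D-primed and 36.7, 38.1, 31.0 and 36.3 CPM in 3D-primed libraries, a log2 rise of 1.00 (standard error 0.075, edgeR FDR = 1.4e-06). HIBADH and ALDH6A1, the dehydrogenases of the next steps, rose less, by 0.30 and 0.33 (edgeR FDR = 0.0031 and 0.0006). For the propionyl-CoA made from valine and isoleucine, PCCA, the biotin-carrying subunit of its carboxylase, had 27.3, 26.5, 25.0 and 25.0 CPM in 2D-primed and 28.3, 26.3, 27.1 and 28.2 CPM in 3D-primed libraries. These overlapped, with a log2 fold change of 0.08 (standard error 0.048, edgeR FDR = 0.15). PCCB, the other subunit, rose by 0.22 (edgeR FDR = 0.0084), and MMUT, the cobalamin-dependent mutase that yields succinyl-CoA, rose from 52.3 ± 2.70 to 76.0 ± 4.77 CPM (log2 fold change 0.54, edgeR FDR = 1.2e-05).

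**Figure D3:**
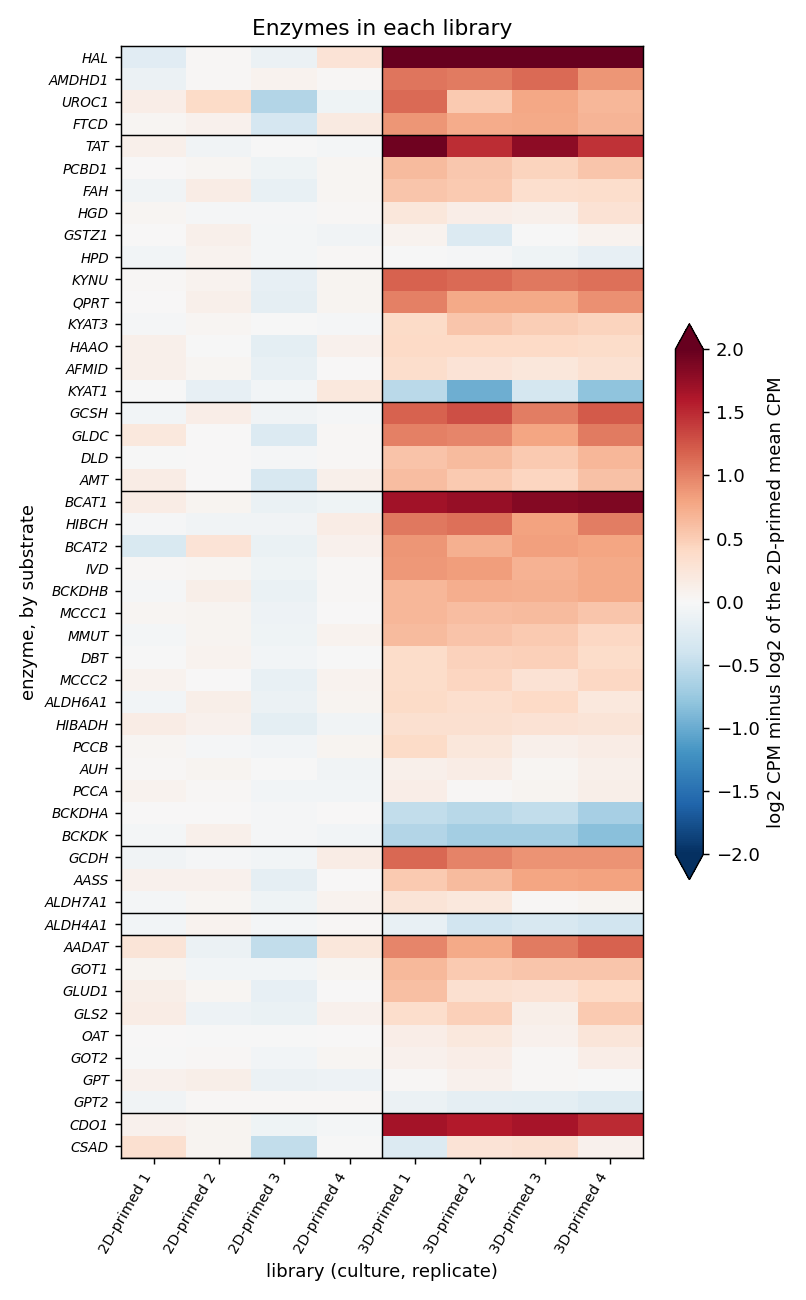
Level of the 50 tested enzymes in each of the 8 libraries, as log2 CPM minus the log2 of the gene's mean in 2D-primed libraries, with rows grouped by substrate and colours capped at 2. Red is above and blue below the 2D-primed mean; the 4 3D-primed columns are red in most rows and blue in BCKDHA, BCKDK, KYAT1, ALDH4A1 and GPT2.

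The heat map of levels by library shows the 3D-primed columns mostly of one colour within a row, while 2D-primed replicate 3 is slightly blue in many rows. For lysine, AASS, the bifunctional enzyme that opens the saccharopine pathway, had 25.9, 25.8, 21.6 and 24.5 CPM in 2D-primed and 35.1, 37.9, 42.2 and 42.5 CPM in 3D-primed libraries, a log2 rise of 0.69 (edgeR FDR = 2.4e-05). ALDH7A1, the semialdehyde dehydrogenase of the next step, had 99.5, 106, 96.8 and 108 CPM in 2D-primed and 123, 119, 104 and 106 CPM in 3D-primed libraries. These overlapped, and the log2 fold change was 0.14 (standard error 0.061, edgeR FDR = 0.066). GCDH, glutaryl-CoA dehydrogenase, where lysine and tryptophan breakdown meet, had 13.4, 13.8, 13.6 and 15.7 CPM in 2D-primed and 31.3, 27.9, 26.2 and 26.2 CPM in 3D-primed libraries. Its groups were well apart, with a log2 fold change of 0.98 (standard error 0.075, edgeR FDR = 1.6e-06).

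ALDH4A1, the dehydrogenase that completes proline breakdown to glutamate, was abundant and lower in 3D-primed cells. It had 347, 376, 349.6 and 367 CPM in 2D-primed and 324, 276, 288 and 275 CPM in 3D-primed libraries, and it fell by 0.31 in log2 units (standard error 0.057, edgeR FDR = 0.00079). Of the cysteine enzymes 1 rose and 1 was not called. CDO1 (ENSG00000129596, chromosome 5, 115804733 to 115816659) encodes cysteine dioxygenase, which oxidises cysteine to its sulfinate. At 2.47, 2.42, 2.20 and 2.28 CPM in 2D-primed and 7.39, 7.00, 7.35 and 6.59 CPM in 3D-primed libraries it was scarce in both groups but tightly measured. The groups stood well apart, with a log2 fold change of 1.60 (standard error 0.097, edgeR FDR = 3.8e-07). CSAD, the decarboxylase that leads the sulfinate towards taurine, had only 32 to 63 counts per library and 2.29, 1.90, 1.30 and 1.81 CPM in 2D-primed and 1.51, 2.21, 2.26 and 1.95 CPM in 3D-primed libraries. Its groups overlapped fully, with a log2 fold change of 0.12 (standard error 0.21, edgeR FDR = 0.64). A change near the size of this standard error could have been missed.

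Glutamate metabolism and the general transaminases had the smallest median log2 fold change of the groups with more than 1 gene, 0.27, with 5 genes higher, 1 lower and 2 not called. That is 62.5% higher, beside 32.4% of all genes tested, while 31.6% of all genes were lower. GLUD1, glutamate dehydrogenase, was the most abundant member per kb in both groups, at 208 and 276 CPM per kb. Its level was 744, 705, 611 and 690.0 CPM in 2D-primed and 1039, 859, 843 and 905 CPM in 3D-primed libraries, a log2 rise of 0.41 (edgeR FDR = 0.0009), and its near copy GLUD2 had 1 to 4 counts per library. GLS2, the liver-type glutaminase, had 6.41, 5.40, 5.29 and 6.16 CPM in 2D-primed and 7.43, 8.06, 6.31 and 8.38 CPM in 3D-primed libraries. It passed the test with a log2 fold change of 0.37 (edgeR FDR = 0.013), although its groups overlapped by 1 library.

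GOT1, the cytosolic aspartate transaminase, had 105, 97.0, 97.7 and 104 CPM in 2D-primed and 159, 146, 149 and 149 CPM in 3D-primed libraries, a log2 rise of 0.58 (edgeR FDR = 1.5e-06). GOT2, the mitochondrial form, had 131, 135, 127 and 136 CPM in 2D-primed and 140.1, 145, 135 and 145 CPM in 3D-primed libraries. The groups overlapped by 1 library, and its log2 fold change of 0.10 (standard error 0.04) lay close to the threshold (edgeR FDR = 0.055). GOT2, AUH, ALDH7A1 and PCCA each passed the test under at least 1 other setting. GPT, the cytosolic alanine transaminase, was scarce and overlapped, with 4.81, 4.88, 4.19 and 4.22 CPM in 2D-primed and 4.60, 4.78, 4.62 and 4.49 CPM in 3D-primed libraries (log2 fold change 0.03, standard error 0.098, edgeR FDR = 0.8). GPT2, the mitochondrial form, was far more abundant at 424, 450.2, 454 and 452 CPM in 2D-primed and 411, 391, 388 and 371 CPM in 3D-primed libraries. It fell by 0.19 in log2 units (standard error 0.042, edgeR FDR = 0.0026). AADAT, which transaminates 2-aminoadipate and kynurenine, rose from 1.83 ± 0.424 to 3.66 ± 0.442 CPM, just under 2-fold (log2 fold change 0.999, edgeR FDR = 0.00079). OAT, the ornithine transaminase, rose by 0.17 on the log2 scale (edgeR FDR = 0.0048).

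Ratios within a library do not depend on its depth, so 10 pairs of subunits, isoenzymes and successive enzymes were compared this way with a two-sided exact permutation test on the log2 ratio of counts. With 4 libraries against 4 the smallest possible p is 0.0286, which becomes 0.0357 after adjustment over the 10 pairs, and 8 pairs reached it. The pairs were chosen with earlier results known, and no share over other gene pairs was computed. BCKDHA with BCKDHB and KYAT1 with KYAT3 moved in opposite directions without overlap. Their ratios were thus bound to reach the smallest p, and only the size of these shifts is informative. The subunits BCKDHA and BCKDHB moved most. BCKDHA counts were 4.11 times those of BCKDHB in 2D-primed and 1.71 times in 3D-primed cells, with log2 ratios of 2.04 ± 0.092 and 0.77 ± 0.11 (SD, n = 4). KYAT3 counts were 1.59 times those of KYAT1 in 2D-primed and 3.47 times in 3D-primed cells, a shift of -1.13 in the log2 ratio of KYAT1 to KYAT3. The cytosolic form gained on the mitochondrial one in BCAT1 over BCAT2 (15.2 times to 29.7 times, log2 difference 0.97) and in GOT1 over GOT2 (0.764 to 1.07, log2 difference 0.48). It went the other way in KYAT1, which is cytosolic, over KYAT3, which is mitochondrial (log2 difference -1.13).

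The ratio of GPT to GPT2 shifted by 0.22 on the log2 scale with exact p = 0.0571 (adjusted 0.0635), so this pair did not pass. HIBCH gained on HIBADH by 0.70, GLDC on AMT by 0.41 and MCCC1 on MCCC2 by 0.24. The log2 ratio of BCKDK to BCKDHA fell by 0.15, from 1.82 to 1.64 times in counts. The propionyl-CoA carboxylase subunits PCCA and PCCB differed by -0.14 with overlapping ratios (exact p = 0.114, the same after adjustment).

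**Figure D4:**
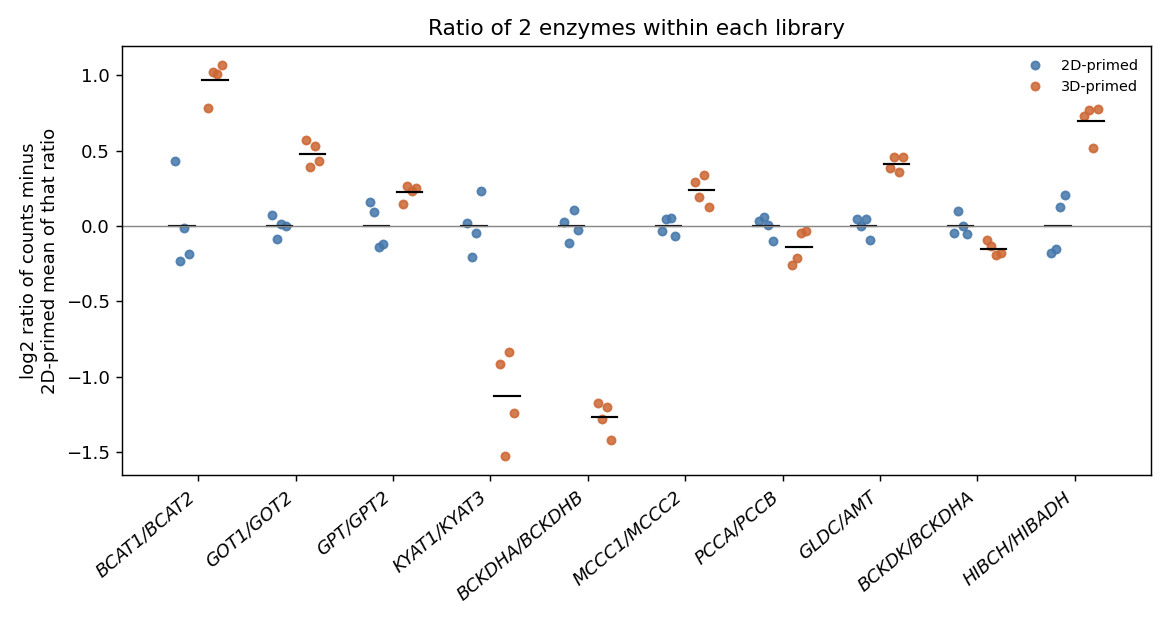
Log2 ratio of the counts of 2 enzymes within each library, minus the 2D-primed mean of that ratio, for 10 pairs, with 2D-primed libraries in blue, 3D-primed libraries in orange and bars at the group means. The 3D-primed points lie lowest for BCKDHA/BCKDHB (mean shift -1.27) and KYAT1/KYAT3 (-1.13) and highest for BCAT1/BCAT2 (0.97), while those of PCCA/PCCB overlap the 2D-primed points.

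The plot of ratios by pair shows that members of 1 complex did not move as a unit in the branched-chain dehydrogenase. Sorted by the compartment in which the enzyme works, 15 of 20 tested cytosolic members rose and 1 fell (median log2 fold change 0.56). Of 29 mitochondrial members, 22 rose and 4 fell (median 0.42). The rises were 75.0% of the cytosolic and 75.9% of the mitochondrial members, beside 32.4% of all genes tested, and 31.6% of all genes fell. ALDH7A1, which is found in both, was not called. Of the 7 members that rose at least 2-fold, as 4.86% of all genes did, 6 are cytosolic and 1, GCSH, is mitochondrial. This split depends on the cut-off. The mitochondrial HIBCH, AADAT, GCDH and GLDC lay just under 2-fold, with log2 fold changes of 0.999, 0.999, 0.98 and 0.96. Of the 5 members that fell, 4 are mitochondrial (BCKDHA, BCKDK, ALDH4A1 and GPT2). The difference between compartments was not tested.

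The 68 other genes listed for the same pathways give the wider setting, and 11 of them had too few counts to test. Of the 57 tested, 35 rose, 10 fell and 12 were not called, with a median log2 fold change of 0.28. That is 78.9% called, beside 63.9% of all genes tested. The rises made up 61.4%, beside 32.4% of all genes, and the falls are to be read beside 31.6% of all genes. Named here are genes called with at least a 2-fold change. MMAB, which makes the adenosylcobalamin used by the mutase MMUT, rose most, from 14.6 ± 1.61 to 55.3 ± 3.29 CPM (log2 fold change 1.93, edgeR FDR = 3.9e-08). ACADSB, the dehydrogenase on the isoleucine branch, rose by 1.22 (edgeR FDR = 1.8e-07). GNMT, which methylates glycine, rose by 1.59 (edgeR FDR = 1.7e-05).

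Transsulfuration, which supplies the cysteine that CDO1 oxidises, rose at both its steps: CBS by 1.52 and CTH by 1.25 on the log2 scale (edgeR FDR = 7.9e-09 and 5.8e-08). SUOX, sulfite oxidase at the end of cysteine breakdown, rose by 1.22 (edgeR FDR = 5.1e-07). SQOR, which oxidises hydrogen sulfide in mitochondria, was the 1 other gene to fall at least 2-fold, with 22.0, 26.0, 29.6 and 25.4 CPM in 2D-primed and 13.5, 13.6, 12.2 and 11.4 CPM in 3D-primed libraries (log2 fold change -1.02, edgeR FDR = 5.5e-06). Of hydroxyproline breakdown, PRODH2 and HOGA1 rose by 1.15 and 1.02 on the log2 scale (edgeR FDR = 2.2e-06 and 1.1e-05), while PRODH, the proline dehydrogenase upstream of ALDH4A1, was too scarce to test. Several enzymes that would complete the tryptophan routes were also too scarce to test. KMO, the kynurenine hydroxylase on the way to HAAO, had at most 1 count in any library, and IDO1, IDO2 and ACMSD were likewise untested. HDC, which decarboxylates histidine to histamine, had no count in any library.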

How the data were processed

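Polyadenylated RNA of 4 2D-primed and 4 3D-primed HepG2 replicates was sequenced. The authors deposited estimated counts per gene, made with Salmon on Ensembl human cDNA (GRCh38) and summed to genes with tximport, whose length setting is not given in the sources used here. The values were already whole. Genes with 10 counts or more in 2 libraries or more were scaled by TMM and tested in edgeR 4.0.16 (R 4.3.3) with glmQLFit and glmQLFTest, with Benjamini-Hochberg adjustment over all 13943 genes. The standard error is the size of the log2 fold change divided by the square root of F. CPM per kb uses MANE Select transcript lengths of GENCODE 44. Within a group, libraries differed by a chi-square of 6.34 to 17.4 per degree of freedom, so none repeated another, and the biological coefficient of variation was 0.0934.

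The members, other pathway genes, markers and pairs were chosen with earlier results of these data known. Every member is described. Other pathway genes are named when called with at least a 2-fold change, beside scarce ones and electron transfer and tetrahydrobiopterin genes named after their values were seen. Ratios were tested with scipy 1.17.1, and pandas 2.3.3 and matplotlib 3.10.9 were used in Python 3.11.15. The values of some single items are not reported here. The scripts were tested on simulated data. Alternatives were DESeq2 1.42.0, limma-voom (limma 3.58.1), other scalings and filters, each library left out, the replicate number as a block, counts without mitochondrial DNA genes and, for ratios, 0.5 counts added.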

Additional observations from a re-analysis of the deposited data

Results flagged for a closer look

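In 3 of the 100 groups of 4 libraries examined, 1 enzyme in 1 culture condition, a single library lay far from the others by Dixon's criterion, which chance meets in about 1 group in 20. KYNU was lowest in 2D-primed replicate 3 at 22.3 CPM, with the other 2D-primed libraries at 25.4 to 26.0 CPM. IVD was lowest in the same library at 51.4 CPM, below a range of 55.5 to 56.0 CPM. GPT2 was lowest in 2D-primed replicate 1 at 423.7 CPM, below a range of 450.2 to 454.1 CPM. In all 3 enzymes the groups of 4 libraries did not overlap, with this library included.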

How the results depend on the processing

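Over 18 alternatives, 37 to 41 members rose, with 41 under upper-quartile scaling and 40 under total counts, 5 fell, and the members' median log2 fold change ran from 0.42 to 0.51. DESeq2 gave 37 rises and 5 falls. No called member lost its call. AUH, ALDH7A1, GOT2 and PCCA passed the test in 11 results across the alternatives, 7 of them under total counts or upper quartile. Upper quartile, which moved the median of all genes by 0.05, also moved the median of the tryptophan genes to 0.48, of the glutamate and transaminase genes to 0.32 and of the other pathway genes to 0.33. The sign turned only in genes that were not called: GSTZ1 was at 0.000298 under total counts, 0.0228 under upper quartile and -0.067 to 0.038 with single libraries left out. GPT ran from -0.0059 to 0.069 and CSAD from -0.016 to 0.24 with single libraries left out. The cause was not tested. Libraries with the same replicate number correlated at -0.0439 to 0.0880 in their deviations from the group means. Those with different numbers ran from -0.120 to 0.136. No pairing by number was visible, which does not show how the replicates were started. With a replicate block, 38 members rose (GOT2 added, edgeR FDR = 0.049) and 5 fell, and 8490 of all genes were called. CSAD, BCAT2, AADAT and UROC1 had few counts and standard errors of 0.16 to 0.21. GPT and CDO1 also had few counts, with standard errors of 0.098 and 0.097. The effect of depth was not tested.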

Other observations

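Electrons taken from lysine and branched-chain intermediates by dehydrogenases such as IVD and GCDH pass to the electron transfer flavoprotein and from it to a separate oxidoreductase. Their genes were chosen here after their values were seen. ETFB, its beta subunit, had 643, 723, 802 and 748 CPM in 2D-primed and 402, 375, 372 and 343 CPM in 3D-primed libraries, a log2 fold change of -0.97 (edgeR FDR = 1.2e-06). ETFA, the alpha subunit, overlapped between the groups at 146 to 152 CPM in 2D-primed and 135 to 152 CPM in 3D-primed libraries (log2 fold change -0.06, edgeR FDR = 0.22). ETFDH, which hands the electrons on to ubiquinone, had 8.83 to 10.1 CPM in 2D-primed and 15.9 to 18.5 CPM in 3D-primed libraries, a log2 rise of 0.84 (edgeR FDR = 3.2e-06).

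Genes for the synthesis and recycling of the cofactor tetrahydrobiopterin were also split, and they too were chosen after their values were seen. GCH1, which starts its synthesis, and PCBD1, which recycles it, rose by 0.87 and 0.54 on the log2 scale (edgeR FDR = 3.4e-06 and 4.9e-06). PTS, the next enzyme of synthesis, and QDPR, the reductase of recycling, fell by 0.62 and 0.69 on the log2 scale (edgeR FDR = 0.00014 and 1.3e-06).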
